A study of Mus musculus with 11 samples.

Results

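Brca1, Brca2, Cdk2, Ccne1, Ccne2, Ccna2, Cdk1, Mki67 and Top2a were examined in the transcriptome of corticotropin-releasing factor receptor 1-expressing cells of the medial prefrontal cortex (mPFC CRF1+ cells), to ask whether Brca1 and Cdk2 were higher after ethanol withdrawal with or without genes of proliferation. These 9 genes were taken by symbol from the 53465 genes counted, and all 9 were found. The cells were sorted by GFP fluorescence from single adult male CRF1:GFP mice, at least 10 weeks old, in which GFP is under the control of the CRF1 gene. Of the 11 mice, 6 were naïve and received air with the alcohol dehydrogenase inhibitor pyrazole, and 5 were withdrawn, having breathed ethanol vapor intermittently for 5 to 6 weeks, with ethanol and pyrazole injected, and then 5 to 8 days of abstinence. Both groups therefore carried the reporter and received pyrazole, and each library is the cDNA amplified from 160 pg of RNA of 1 mouse.

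Cyclin-dependent kinases drive cell division when a cyclin binds them. Cyclin E (Ccne1 and Ccne2) and cyclin A (Ccna2) activate CDK2 at the entry to and during DNA replication, and CDK1 carries the cell into mitosis. Ki-67 (Mki67) coats mitotic chromosomes and topoisomerase IIα (Top2a) untangles them, and both are used as markers of dividing cells. BRCA1 and BRCA2 repair broken DNA by homologous recombination. Mature cortical neurons do not divide, although some members of the cyclin-dependent kinase family, such as CDK5, have roles in neurons outside the cell cycle.

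In dividing cells many of these genes are switched on in turn through short promoter elements. E2F factors act at the G1 to S transition, and the cell cycle genes homology region (CHR), often beside CCAAT boxes, marks genes of G2 and M phase. Promoters of Brca1 and Cdk2 and of the proliferation genes Mki67 and Top2a are shown because the comparison turns on whether these genes moved together. RefSeq sequences (GRCm38.p6) were found for 7 of the 9 genes, Ccne2 and Ccna2 being the others. Each line gives the 250 bases before the annotated start, 5′ to 3′ on the strand of the gene, which is the minus strand for all 4, at chr11:101551956-101552205 for Brca1, chr10:128705052-128705301 for Cdk2, chr7:135716380-135716629 for Mki67 and chr11:99024190-99024439 for Top2a. Capitals mark matches, on either strand, to E2F (TTTCCCGC, TTTCGCGC, TTTGGCGC or TTTGCCGC), CHR (TTTGAA) and the CCAAT box (CCAAT).
Brca1: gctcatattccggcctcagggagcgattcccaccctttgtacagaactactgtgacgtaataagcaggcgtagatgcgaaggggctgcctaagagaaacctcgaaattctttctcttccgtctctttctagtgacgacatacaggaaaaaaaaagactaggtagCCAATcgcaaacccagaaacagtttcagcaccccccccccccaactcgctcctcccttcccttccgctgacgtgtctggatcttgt
Cdk2: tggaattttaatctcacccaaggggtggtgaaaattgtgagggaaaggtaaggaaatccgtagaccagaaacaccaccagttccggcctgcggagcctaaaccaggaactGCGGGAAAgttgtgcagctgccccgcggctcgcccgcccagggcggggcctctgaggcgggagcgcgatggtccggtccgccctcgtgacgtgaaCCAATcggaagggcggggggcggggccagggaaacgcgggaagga
Mki67: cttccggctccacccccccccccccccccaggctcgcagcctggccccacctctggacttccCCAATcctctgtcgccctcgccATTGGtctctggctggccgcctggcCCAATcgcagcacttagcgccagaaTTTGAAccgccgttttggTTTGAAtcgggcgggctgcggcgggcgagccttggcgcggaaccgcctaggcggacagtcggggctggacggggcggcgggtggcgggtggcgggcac
Top2a: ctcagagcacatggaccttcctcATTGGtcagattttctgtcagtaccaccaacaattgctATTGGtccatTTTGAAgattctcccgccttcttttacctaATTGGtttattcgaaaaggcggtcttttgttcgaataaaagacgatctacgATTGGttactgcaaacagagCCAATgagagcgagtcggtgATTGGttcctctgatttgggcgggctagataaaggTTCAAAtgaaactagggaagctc

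An E2F match stood in the windows of Cdk2, Brca2 and Cdk1, against 1.91% of 27018 windows of the same length. The CHR letters occurred at 2 positions each in Cdk1, Mki67 and Top2a, and in none of Brca1, Brca2, Cdk2 and Ccne1, against 16.3% of all windows. CCAAT boxes numbered 1 in Brca1, 1 in Cdk2, 3 in Cdk1, 3 in Mki67 and 6 in Top2a, and 34.5% of all windows held at least 1. None of these motifs overlapped another. The matches describe letters only.

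Total gene counts per mouse were between 7351567 and 22244869, and levels are given in CPM, counts scaled per library after normalization of library sizes with edgeR's TMM method. A count of 3 equals 0.135 to 0.408 CPM, depending on the mouse, before that normalization. The gene of the receptor that marks the cells, Crhr1, was at 92.7 ± 21.5 CPM (SD, n = 6) in the naïve group against 89.3 ± 33.6 CPM (SD, n = 5) in the withdrawn group, and 7 of 7 markers of glutamatergic neurons had counts in every mouse, with a summed level of 1839 to 3236 CPM in naïve and 1412 to 2880 CPM in withdrawn mice. Of these, Slc17a7 was at 1435 ± 346.0 CPM (SD, n = 6) and 1362 ± 447.4 CPM (SD, n = 5). The GABAergic marker Gad2 was at 39.9 ± 21.5 CPM (SD, n = 6) and 57.5 ± 47.3 CPM (SD, n = 5). Groups follow the treatment recorded for each mouse. For 3 withdrawn mice, replicates 3, 4 and 5, another label reads control, and the design text gives 5 control and 6 ethanol mice, so that main results are also given without these 3. Markers of fibroblasts, which a sort of neurons should lack, summed to 15.5 to 90.6 CPM in naïve mice and to 1619, 39.5, 885, 1343 and 332 CPM in withdrawn replicates 1 to 5. Naïve replicate 5 had the fewest genes detected, 15585 against up to 31830 in other mice, and no reads for 6 of the 9 genes.

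Brca1, near the limit of detection in naïve mice, and Cdk2, low but detected in 5 of 6 of them, were each higher in 4 of 5 withdrawn mice than in any naïve mouse. Brca1 (ENSMUSG00000017146, chr11:101488764-101551955, minus strand), which acts with BARD1 as a ubiquitin ligase in DNA repair, had counts of 4, 0, 2, 2, 0 and 0 in naïve replicates 1 to 6 and 48, 64, 8, 51 and 16 in withdrawn replicates 1 to 5. In CPM these were 0.430, 0, 0.187, 0.116, 0 and 0 in naïve and 3.46, 7.16, 0.374, 6.27 and 1.13 in withdrawn mice. Withdrawn replicate 3 was within the naïve range, and the other 4 were above every naïve mouse. The withdrawn group lay wholly above the naïve group in 0.336% of genes with at least 1 count, and neither Brca1 nor Cdk2 was among them. How often 4 of 5 withdrawn mice lie above every naïve mouse over all genes was not computed, so this pattern is a description. The means of Brca1 were 0.122 ± 0.169 CPM (SD, n = 6) and 3.68 ± 3.01 CPM (SD, n = 5).

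The difference in mean log2 CPM for Brca1 was 3.48 with a prior count of 2 (two-sided exact permutation test over all splits of the mice into 5 and 6, p = 0.004329, where the smallest possible is 0.0021645). At this unadjusted threshold of 0.05, 4.87% of tested genes and 2.9% of genes with at least 1 count were higher in withdrawn mice. The size depends on the prior count, since 3 naïve mice had no reads, and was 4.64 with a prior count of 0.5 (p = 0.00649 in the same exact test). Pooled over mice, 8 naïve and 187 withdrawn reads gave a ratio of 30.3 per library size, with an exact 95% interval of 15.1 to 71.3 that covers counting error only. Such bulk values cannot tell more RNA per cell from more cells that carry it. Without the 3 mice of conflicting label, the difference was 4.48 (two-sided exact permutation test, p = 0.0357, the smallest that 2 against 6 mice allow).

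Cdk2 (ENSMUSG00000025358, chr10:128697939-128705031, minus strand), the kinase partner of cyclins E and A, had 0.430, 1.76, 1.03, 0.582, 0 and 1.42 CPM in naïve replicates 1 to 6, from 0 to 32 counts, and 11.5, 6.83, 5.75, 5.41 and 1.13 CPM in withdrawn replicates 1 to 5, from 16 to 159 counts. Withdrawn replicate 5 was within the naïve range, and the other 4 were above every naïve mouse. The means were 0.870 ± 0.656 CPM (SD, n = 6) and 6.11 ± 3.69 CPM (SD, n = 5). Exons of Pmel on the opposite strand overlap 34 of its 6219 exonic bases, and Pmel itself had at most 1.79 CPM in any mouse.

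For Cdk2 the difference in mean log2 CPM was 2.72 (two-sided exact permutation test, p = 0.0108). The 80 naïve and 403 withdrawn reads gave a pooled ratio of 6.54, with an interval for counting error of 5.13 to 8.42. Without the 3 mice of conflicting label, the difference was 3.54 (two-sided exact permutation test, p = 0.0357). The withdrawn mice were not in the same order for both genes, since replicate 3 had the lowest Brca1 and replicate 5 the lowest Cdk2.

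**Figure D1:**
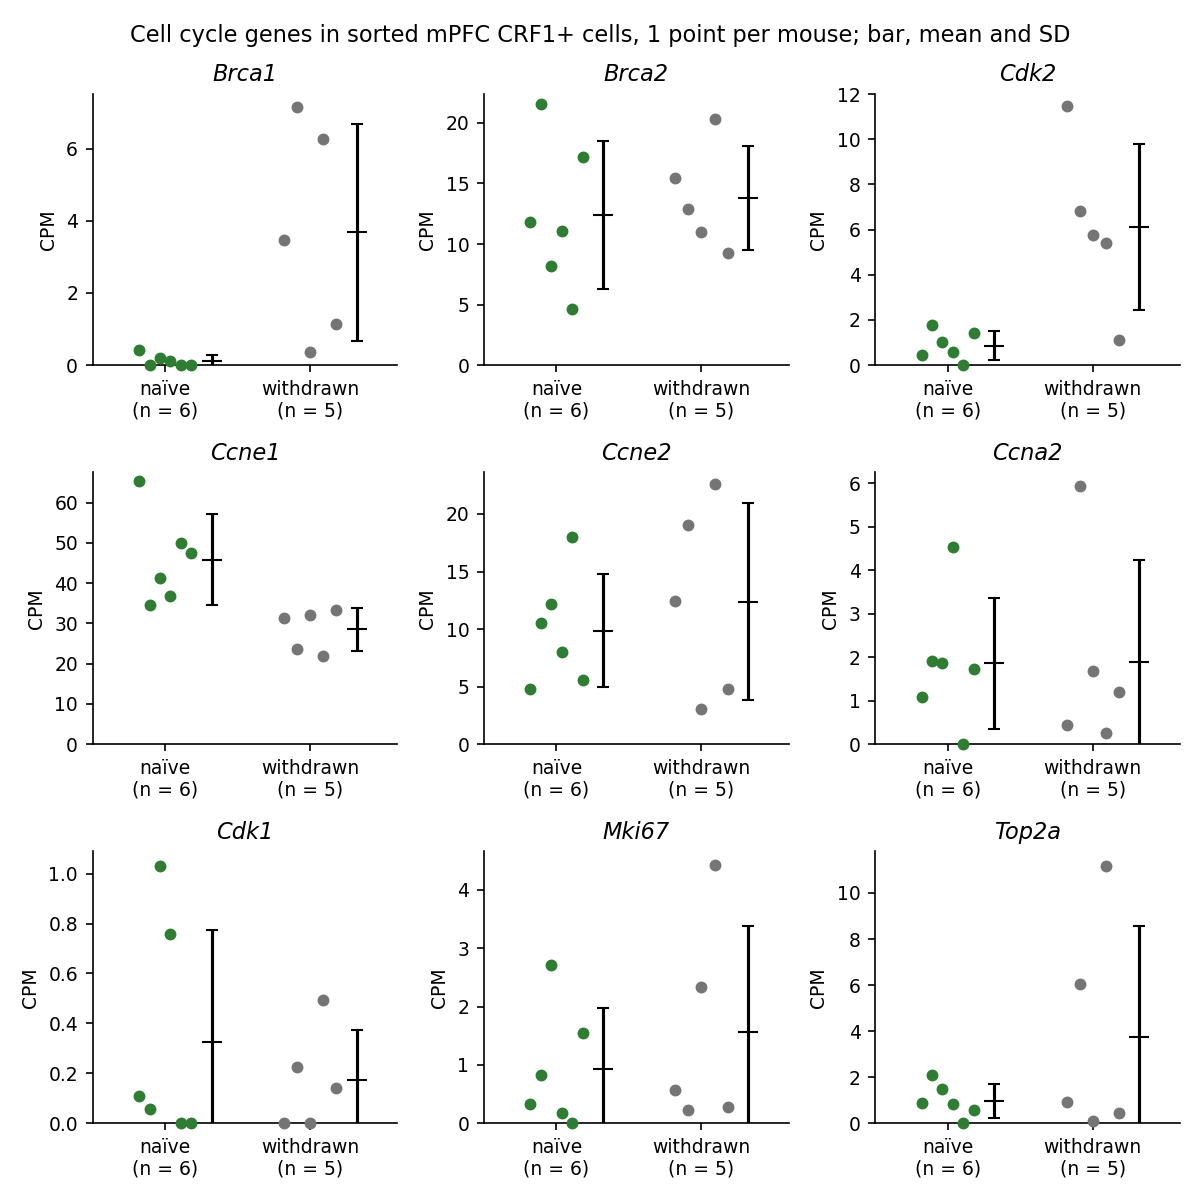
Levels of the 9 genes in CPM (vertical axis, from 0, a scale per gene), 1 point per mouse, 6 naïve mice in green and 5 withdrawn mice in gray, with the mean and SD beside each group (SD bars end at 0 where they would pass below it). For Brca1 and Cdk2, 4 of 5 withdrawn mice lie above every naïve mouse, a pattern whose share over all genes was not computed. For Ccne1 every withdrawn mouse lies below every naïve mouse.

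The cyclins that bind CDK2 did not follow it. Ccne1 (ENSMUSG00000002068, chr7:38097984-38107534, minus strand), cyclin E1, was lower in every withdrawn mouse than in every naïve mouse, at 65.3, 34.5, 41.3, 36.7, 49.8 and 47.4 CPM in naïve replicates 1 to 6 and 31.4, 23.7, 31.998, 21.9 and 33.4 CPM in withdrawn replicates 1 to 5. Such complete separation toward lower values was seen in 0.257% of tested genes. Its difference in mean log2 CPM was -0.67 (two-sided exact permutation test, p = 0.004329), and -0.71 without the 3 mice of conflicting label (p = 0.0357 in the same exact test).

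Ccne2 (ENSMUSG00000028212, chr4:11191351-11204779, plus strand), cyclin E2, ranged from 4.83 to 18.01 CPM in naïve mice (median 9.29). In withdrawn replicates 1 to 5 it was at 12.5, 19.0, 3.04, 22.6 and 4.81 CPM, so that the groups overlapped, and the difference in mean log2 CPM was 0.10 (two-sided exact permutation test, p = 0.861). Exons of Ints8 on the opposite strand cover 609 of its 3495 exonic bases, so its count is uncertain.

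Ccna2 (ENSMUSG00000027715, chr3:36564865-36572150, minus strand), cyclin A2, was at 1.07, 1.92, 1.87, 4.54, 0 and 1.73 CPM in naïve replicates 1 to 6 and 0.432, 5.93, 1.68, 0.246 and 1.20 CPM in withdrawn replicates 1 to 5. Only withdrawn replicate 2 was above the naïve range, and the difference in mean log2 CPM was -0.10 (two-sided exact permutation test, p = 0.903). Exons of Exosc9 on the opposite strand cover 510 of its 4083 exonic bases.

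Of the markers of dividing cells, Cdk1 and Mki67 were low in both groups, and Top2a was high in part of the withdrawn mice. Cdk1 (ENSMUSG00000019942, chr10:69335146-69352938, minus strand) had at most 13 counts in any mouse, and was at 0.107, 0.0549, 1.03, 0.757, 0 and 0 CPM in naïve replicates 1 to 6 and 0, 0.224, 0, 0.492 and 0.141 CPM in withdrawn replicates 1 to 5. Its difference in mean log2 CPM was -0.26 (two-sided exact permutation test, p = 0.755). At this depth a change in Cdk1 could hardly be detected, as 26 reads in all naïve and 8 in all withdrawn mice stood behind it.

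Mki67 (ENSMUSG00000031004, chr7:135689784-135716361, minus strand) was at 0.322, 0.824, 2.72, 0.175, 0 and 1.54 CPM in naïve and 0.576, 0.224, 2.34, 4.43 and 0.283 CPM in withdrawn mice, in the order of their replicate numbers. Only withdrawn replicate 4 exceeded the naïve range. The difference in mean log2 CPM was 0.63 (two-sided exact permutation test, p = 0.535), and without the 3 mice of conflicting label it was -0.40 (p = 0.786 in the same exact test), so that its direction rests on them.

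Top2a (ENSMUSG00000020914, chr11:98992943-99024189, minus strand) was at 0.859, 2.09, 1.4999, 0.815, 0 and 0.556 CPM in naïve and 0.936, 6.04, 0.0934, 11.2 and 0.424 CPM in withdrawn replicates. Withdrawn replicates 2 and 4 stood above every naïve mouse and the other 3 were within the naïve range. The difference in mean log2 CPM was 0.92 (two-sided exact permutation test, p = 0.439). Pooled over mice, the ratio of withdrawn to naïve reads was 2.54 for Top2a (interval for counting error 1.94 to 3.33), 1.73 for Mki67 (1.27 to 2.37), 0.865 for Ccna2 (0.677 to 1.10) and 0.399 for Cdk1 (0.156 to 0.909), intervals that leave out the spread between mice. These same replicates, 2 and 4, had the highest Brca1, and in them the share of reads outside exons was also the largest, 39.6% and 48.1% against 5.77% to 31.5% in the other mice, whose part in these values was not tested.

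Brca2 (ENSMUSG00000041147, chr5:150522630-150570329, plus strand) was detected in every mouse and did not follow Brca1. It ranged from 4.61 to 21.6 CPM in naïve mice (median 11.4) and was at 15.4, 12.9, 11.0, 20.3 and 9.27 CPM in withdrawn replicates 1 to 5, all within the naïve range. The difference in mean log2 CPM was 0.26 (two-sided exact permutation test, p = 0.539). Without the 3 mice of conflicting label the differences were 0.34 for Brca2, 0.78 for Ccne2, 0.46 for Ccna2, -0.48 for Cdk1 and 1.62 for Top2a, with p of at least 0.179 in the same exact test, and that of Ccna2 had changed sign.

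Per kilobase of exon, Ccne1 had the highest level of the 9 genes, 17.2 CPM per kilobase in naïve and 10.7 in withdrawn mice, and no naïve mouse had a level of another member as high as its lowest, 12.95. In naïve mice the mean levels per kilobase then ran from Ccne2 (2.82) over Brca2 (0.909), Ccna2 (0.455), Cdk2 (0.140), Top2a (0.108), Mki67 (0.0925) and Cdk1 (0.0659) to Brca1 (0.0143), and the ranges over mice of each neighbouring pair overlapped. In withdrawn mice Cdk2 was at 0.983 CPM per kilobase, beside Brca2 at 1.01, and Brca1 was at 0.431, beside Ccna2 at 0.465 and Top2a at 0.415.

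In the fit across all genes by edgeR's quasi-likelihood test, 17093 genes passed the filter on low counts. Of the 9 genes 7 passed, and Brca1 and Cdk1 did not. A gene was called where its Benjamini-Hochberg adjusted p was 0.05 or less and its log2 fold change was over 0.6 in size, which 0.00585% of tested genes met, and 0 of the 7 genes did. At an unadjusted p under 0.05, Cdk2 was higher and Ccne1 lower, against 5% and 2.22% of tested genes. The log2 fold change was 2.79 ± 0.93 (SE) for Cdk2 (edgeR adjusted p = 0.416) and -0.68 ± 0.23 (SE) for Ccne1 (edgeR adjusted p = 0.423). The other 5 had values from 0.03 for Ccna2 to 1.93 ± 1.18 (SE) for Top2a, with edgeR adjusted p of at least 0.807.

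With no filter on low counts, the log2 fold change of Brca1 was 4.85 ± 1.34 (SE) (edgeR adjusted p = 0.205), and in that fit 8.59% of genes were higher at an unadjusted p under 0.05. DESeq2's Wald test, run as an alternative, called as higher 0.838% of the 40831 genes to which it gave a p-value, or 1.57% of those with an adjusted p. Of the 9 genes it called Brca1, at a log2 fold change of 5.12 ± 1.10 (SE) and an adjusted p of 0.000800, and Cdk2, at 2.85 ± 0.76 (SE) and an adjusted p of 0.0184. Without the 3 mice of conflicting label DESeq2's adjusted p was 0.0262 for Brca1 and 0.0891 for Cdk2. DESeq2 did not call Ccne1 (adjusted p = 0.0927) and gave no adjusted p for Cdk1.

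**Figure D2:**
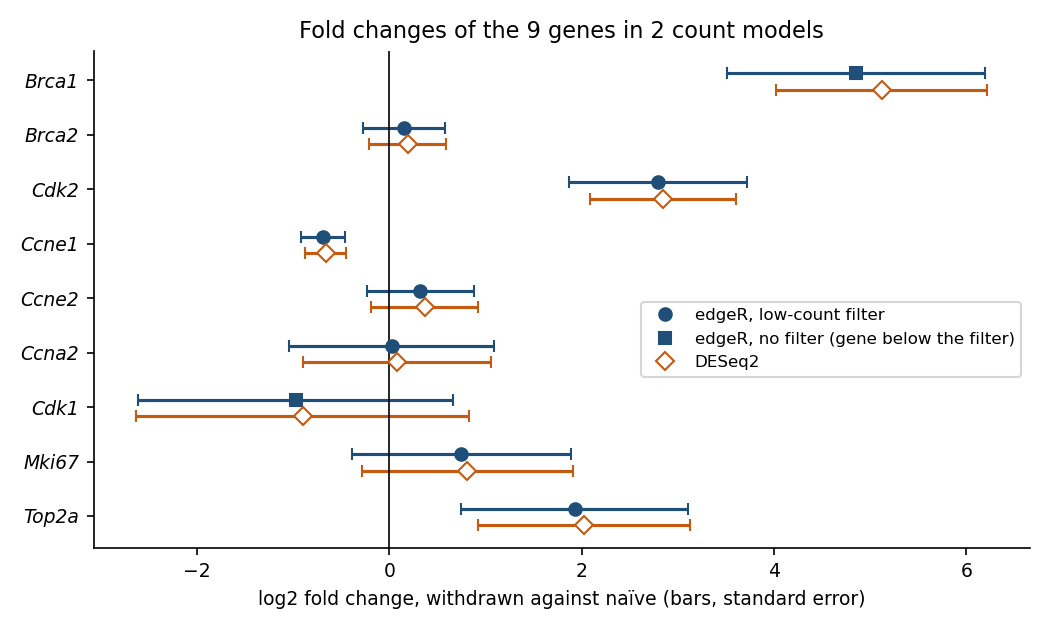
Log2 fold change of withdrawn against naïve mice (horizontal axis) with its standard error for each of the 9 genes, by edgeR (filled symbols, squares for the 2 genes below its low-count filter, fitted without it) and DESeq2 (open diamonds). Both tools give Brca1 and Cdk2 the largest values, 4.85 and 2.79 by edgeR, while Brca2, Ccne2, Ccna2, Cdk1 and Mki67 lie within their standard error of 0.

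Whether Brca1 and Cdk2 changed more than the proliferation genes was compared directly, as the difference in log2 CPM within each mouse. Against the mean of Ccna2, Cdk1, Mki67 and Top2a, Brca1 stood at -1.62 ± 1.24 (SD, n = 6) in naïve and 1.56 ± 1.19 (SD, n = 5) in withdrawn mice, on a log2 scale without correction for length, so that only the shift between groups can be read. Withdrawn replicate 3 was the lowest withdrawn mouse, at -0.28, and naïve replicates 1 and 5, at -0.10 and 0, were above it. Cdk2 stood at 0.12 ± 0.73 (SD, n = 6) and 2.55 ± 1.35 (SD, n = 5), and each withdrawn mouse, from 1.21 to 4.52, was above each naïve mouse, from -0.64 to 1.06. The margin was small, between withdrawn replicate 5, with 16 Cdk2 counts, and naïve replicate 6. The mean holds genes of few reads, such as Cdk1 with at most 13 counts. How often other genes are so separated from this mean was not computed.

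In pairs, chosen after seeing the data, each of the 2 genes was set against each of the 4 proliferation genes, and 7 of the 8 shifts had p of at most 0.05 in a two-sided exact permutation test. For Brca1 the shift was 3.74 against Cdk1 (exact p = 0.0021645, adjusted over the 8 pairs 0.0173), 3.58 against Ccna2 (exact p = 0.0195, adjusted 0.0312), 2.56 against Top2a (exact p = 0.0108, adjusted 0.0289) and 2.86 against Mki67 (exact p = 0.0476, adjusted 0.0544). For Cdk2 it was 2.82 against Ccna2 (exact p = 0.004329, adjusted 0.0173), 2.98 against Cdk1 (exact p = 0.0238, adjusted 0.0317), 2.09 against Mki67 (exact p = 0.0195, adjusted 0.0312) and 1.80 against Top2a (exact p = 0.108, adjusted 0.108). For Cdk2 against Top2a the shift was not larger than the spread between mice, and the shifts against Cdk1, which had few reads in either group, mostly restate the differences of Brca1 and Cdk2 themselves. Brca1 and Cdk2 were known to be high in withdrawn mice when the pairs were set. These p-values, their adjustment and the count of 7 are therefore not independent evidence, and only the shifts are given as descriptions. Without the 3 mice of conflicting label, 7 of the 8 shifts had p of at most 0.05, where 0.0357 is the smallest possible, and the same limit holds for this count. Naïve replicate 5, at 0 for all 6 of these genes, has a difference of 0 by construction.

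**Figure D3:**
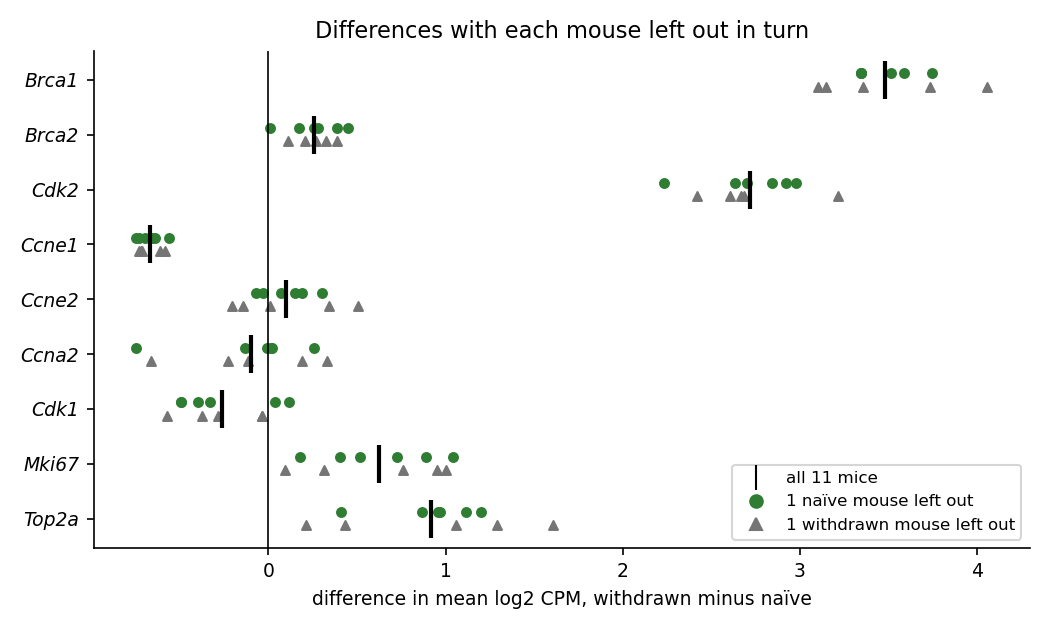
Difference in mean log2 CPM of withdrawn minus naïve mice (horizontal axis) for each gene with all 11 mice (black bars) and with 1 naïve (circles) or 1 withdrawn mouse (triangles) left out. Brca1 stays between 3.10 and 4.06 and Cdk2 between 2.24 and 3.22, whereas Ccne2, Ccna2 and Cdk1 pass through 0.

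Over the 11 mice, log2 CPM of Brca1 and Cdk2 had a Pearson correlation of 0.70, and both were negatively correlated with Ccne1, at -0.72 for Brca1 and -0.75 for Cdk2. Top2a was the proliferation gene most like Brca1, at 0.62, while Mki67 (0.15), Cdk1 (0.17) and Ccna2 (0.01) were less like it. For Cdk2 the values were 0.53 with Mki67, 0.52 with Top2a, 0.28 with Ccna2 and -0.05 with Cdk1. Among all tested genes the most like Brca1 were Ccdc125 (0.92), Zfp386 (0.91) and Angpt2 (0.90), and the most like Cdk2 were Specc1l (0.97), Mtmr11 (0.95) and Lima1 (0.94). All points share the group difference and the depth of their libraries, so these values are descriptions.

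Lists of other genes of the cell cycle and of DNA repair gave the setting, and edgeR called none of their genes, against 0.00585% of tested genes. Beside each list, the median log2 fold change over all tested genes was 0.02, with 8852 higher and 8241 lower. Of all tested genes, 5% were higher and 2.22% lower at an unadjusted p under 0.05. List genes named below at that p are therefore descriptions. Of 12 genes listed as G1 cyclins and kinases, not all of which act in G1, 11 were tested, with 8 higher and 3 lower and a median of 0.06. Cks1b, a small CDK-binding protein needed to degrade the inhibitor p27, was the one with an unadjusted p under 0.05, at 1.43 to 9.88 CPM in naïve and 6.84 to 20.2 CPM in withdrawn mice (log2 fold change 1.603, edgeR adjusted p = 0.499). Cdk5, the neuronal kinase, and Ccnh had the highest levels per kilobase of this list, 100.2 and 31.99 CPM per kilobase in naïve mice, at log2 fold changes of -0.31 and 0.06.

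Of 15 CDK inhibitors and regulators, 12 were tested, 4 higher and 8 lower, with a median of -0.10. Cdkn1c, which encodes the inhibitor p57, passed an unadjusted p of 0.05, at 21.9 to 39.5 CPM in naïve and 35.7 to 60.1 CPM in withdrawn mice (log2 fold change 0.64, edgeR adjusted p = 0.430). Cdkn2d and Fbxw7 had the highest levels per kilobase, with log2 fold changes of -0.17 and -0.13. Of 15 genes of the RB and E2F group, 14 were tested, 8 higher and 6 lower, with a median of 0.18. E2f5, an E2F factor that acts as a repressor, passed an unadjusted p of 0.05, at 7.60 to 20.2 CPM in naïve and 13.2 to 39.1 CPM in withdrawn mice (log2 fold change 0.89, edgeR adjusted p = 0.547). E2f4 and Tfdp1 had the highest levels per kilobase, with log2 fold changes of -0.11 and 0.08.

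Of 30 DNA replication genes, 25 were tested, 15 higher and 10 lower, with a median of 0.28. Rrm2, a subunit of the ribonucleotide reductase that makes DNA precursors, was lower at an unadjusted p under 0.05, at 1.22 to 6.98 CPM in naïve and 0.448 to 2.02 CPM in withdrawn mice (log2 fold change -1.83, edgeR adjusted p = 0.580). Pcna, the sliding clamp of DNA polymerase, and Orc6 had the highest levels per kilobase, with log2 fold changes of -0.22 and -0.38. Gins2, a part of the replicative helicase, was below the edgeR filter and was called by DESeq2 (log2 fold change 5.67, adjusted p = 0.0469), with 1 read in all naïve mice and 17, 0, 23, 17 and 2 in withdrawn replicates 1 to 5. With a mouse left out DESeq2 called it in 1 of 11 fits, some of which gave it no adjusted p, as did the fits without the Cook distance cutoff and without the 3 mice of conflicting label. Exons of Gse1 on the opposite strand cover 2758 of its 4097 exonic bases, so that its reads cannot be told from those of Gse1 if strand was not counted.

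Of 30 genes of G2 and mitosis, 22 were tested, 13 higher and 9 lower, with a median of 0.09. Bub1b, a kinase of the spindle checkpoint, was lower in every withdrawn mouse, at 1.15, 0.448, 0.234, 1.97 and 2.90 CPM in replicates 1 to 5, than in every naïve mouse, at 3.49 to 6.12 CPM, a separation toward lower values that 0.257% of tested genes showed (log2 fold change -1.69, edgeR adjusted p = 0.648). Racgap1 and Mad2l1 had the highest levels per kilobase, with log2 fold changes of 0.29 and -0.41. The smallest edgeR adjusted p was 0.580 in the replication list and 0.648 in the mitosis list.

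Of 30 genes of the BRCA complexes and homologous recombination, 26 were tested, 17 higher and 9 lower, with a median of 0.11. Brcc3, a deubiquitinase of the BRCA1-A complex, was lower at an unadjusted p under 0.05, at 45.2 to 85.5 CPM in naïve and 32.3 to 53.1 CPM in withdrawn mice (log2 fold change -0.53, edgeR adjusted p = 0.629). Babam1 and Bap1, which also encode proteins that act with BRCA1, had the highest levels per kilobase, with log2 fold changes of -0.06 and 0.17. DESeq2 called no gene of this list, to which Brca1 and Brca2 themselves do not belong.

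The DNA damage response list held the largest edgeR fold change of the 7 lists, that of Chek2. Of its 27 genes, 26 were matched and tested, 20 higher and 6 lower, with a median of 0.25, and 2 had every withdrawn mouse above every naïve mouse, against 0.69% of tested genes. Chek2, the checkpoint kinase that phosphorylates BRCA1 and p53, was at 0.537, 1.04, 2.34, 2.85, 0 and 0.0617 CPM in naïve replicates 1 to 6 and 20.5, 6.83, 8.92, 13.6 and 5.45 CPM in withdrawn replicates 1 to 5 (log2 fold change 3.27 ± 0.99, SE). Its adjusted p was 0.327 by edgeR and 0.0127 by DESeq2. Ccng1, a target of p53, was at 29.5 to 67.3 CPM in naïve and 75.0 to 111.9 CPM in withdrawn mice. Its log2 fold change was 0.71, with an adjusted p of 0.305 by edgeR and 0.0390 by DESeq2. Without the 3 mice of conflicting label DESeq2 gave adjusted p of 0.204 for Chek2 and 0.233 for Ccng1. Gadd45g and H2afx had the highest levels per kilobase, with log2 fold changes of 0.24 and -0.53.

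**Figure D4:**
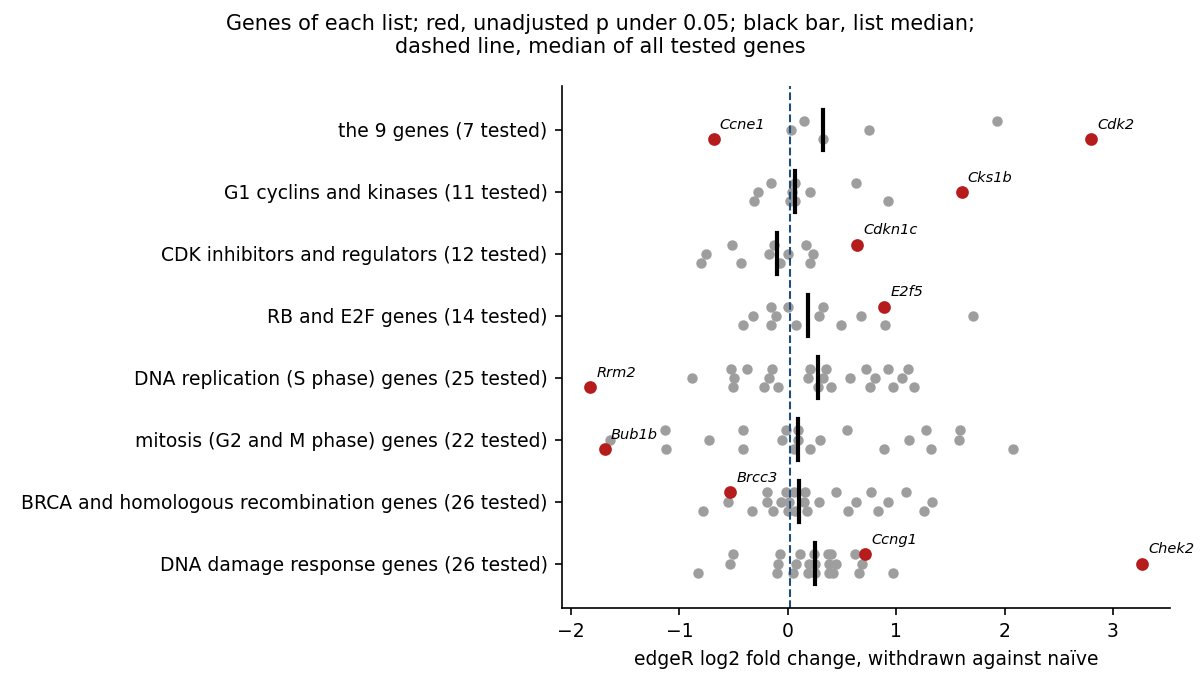
Log2 fold change by edgeR of withdrawn against naïve mice (horizontal axis) for each tested gene of the 9 genes and of 7 lists (rows), with list medians as black bars and the median of all tested genes, 0.02, as a dashed line. Red points have an unadjusted p under 0.05, and none is past the adjusted threshold. Chek2, at 3.27, and Cdk2, at 2.79, lie farthest to the right.

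Levels of markers of other cell types are given beside Brca1 and Cdk2, and those of fibroblasts differed between the groups. Of 10 fibroblast markers, none was at 0 in all mice, and 1 had counts in every mouse. All 8 that were tested were higher in withdrawn mice, 6 of them at an unadjusted p under 0.05, against 5% of tested genes (smallest edgeR adjusted p = 0.0729). Their summed level differed between groups (p = 0.00866 in a two-sided exact permutation test of the log2 sums). This p is unadjusted and was the smallest over all marker lists, which were chosen with earlier results of these data known. Withdrawn replicate 2, whose fibroblast sum of 39.5 CPM was within the naïve range, had the highest Brca1 of all mice, 7.16 CPM, and a Cdk2 of 6.83 CPM, above every naïve mouse. Withdrawn replicates 1, 3, 4 and 5 had sums of 1619, 885, 1343 and 332 CPM, above every naïve mouse. Their Brca1 was at 3.46, 0.374, 6.27 and 1.13 CPM and their Cdk2 at 11.5, 5.75, 5.41 and 1.13 CPM. The part of fibroblasts in the levels of the 9 genes was not tested. Col1a1 was at 16.5 CPM or less in every naïve mouse, Ogn at 8.06 CPM or less, and in withdrawn mice they reached 377.6 and 216.9 CPM.

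Among types that can divide in the adult brain, summed markers of oligodendrocyte precursors were at 0 to 15.5 CPM in naïve and 8.21 to 28.5 CPM in withdrawn mice, and those of microglia at 14.4 to 25.0 CPM and 12.4 to 45.7 CPM. No precursor marker and 2 of 8 microglial markers had counts in every mouse. By edgeR, 3 of the 5 tested microglial markers were higher and 2 lower. Of 6 tested astrocyte markers, 3 were higher and 3 lower, and all 3 tested precursor markers were higher. At an unadjusted p under 0.05, 1 microglial and 2 astrocyte markers were higher, against 5% of tested genes. Astrocyte markers summed to 38.1 to 172.8 CPM and 29.997 to 442.9 CPM. By two-sided exact permutation tests of the log2 sums, p was 0.0844 for precursors, 0.0541 for microglia and 0.102 for astrocytes. Microglial sums were nonetheless above every naïve mouse in withdrawn replicates 1, 3, 4 and 5, at 43.3, 38.4, 45.7 and 31.6 CPM. Astrocyte sums were above every naïve mouse in withdrawn replicates 1, 3 and 4, at 411.1, 306.7 and 442.9 CPM. The astrocyte sum of withdrawn replicate 5 was within the naïve range. Precursor sums in withdrawn replicates 4 and 5 were above every naïve mouse, at 28.5 and 25.8 CPM. Those in withdrawn replicates 1 and 3 were within the naïve range. Pdgfra is in both the precursor and the fibroblast list, so the sums of these lists share a gene. Withdrawn replicate 2 had the lowest sum of microglial and of astrocyte markers of all mice, 12.4 and 29.997 CPM, and a precursor sum of 18.0208 CPM, above every naïve mouse. The part of these cells in the levels of the 9 genes was not tested.

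**Figure D5:**
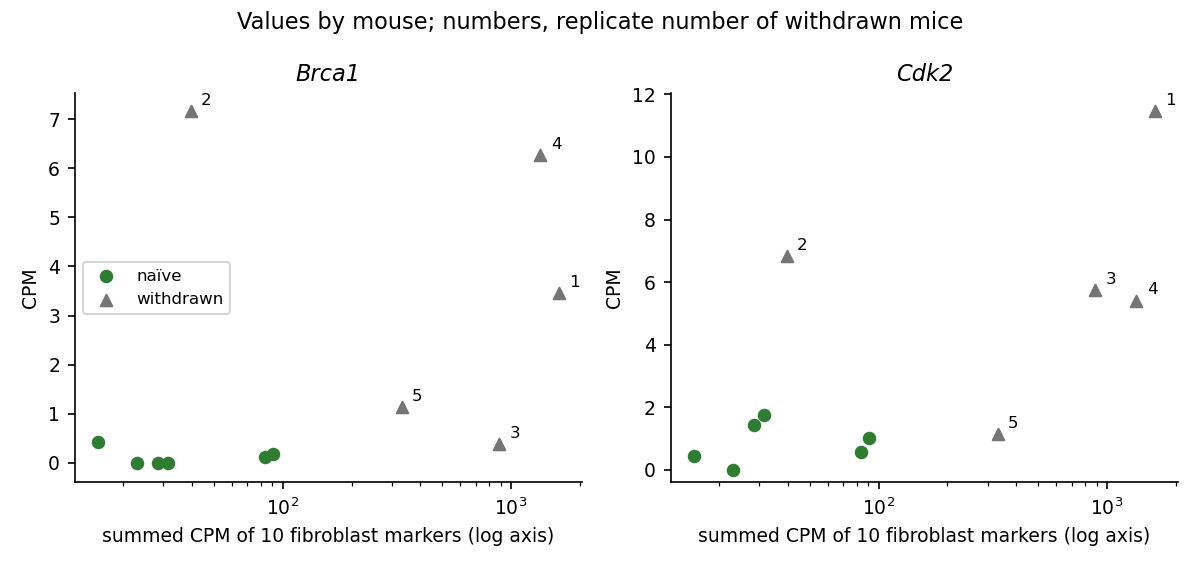
Brca1 (left) and Cdk2 (right) in CPM (vertical axis) against the summed CPM of 10 fibroblast markers (horizontal log axis), with 6 naïve mice as circles and 5 withdrawn mice as triangles that carry their replicate number. Withdrawn replicate 2 has a fibroblast sum of 39.5 CPM, within the naïve range, and the highest Brca1, 7.16 CPM. Withdrawn replicate 1 has the highest fibroblast sum, 1619 CPM, and the highest Cdk2, 11.5 CPM.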

How the data were processed

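The authors used cutadapt for trimming, STAR for alignment to GRCm38 and HTSeq for counting, and deposited the raw counts of each mouse, neither normalized nor pooled. The strand setting is not given in the sources used here, so reads of overlapping genes on opposite strands may be shared. Symbols, positions and exon lengths were taken from GENCODE M21, on the same assembly.

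Counts were compared by edgeR 4.0.16 in R 4.3.3 (TMM, filterByExpr with a minimum count of 10 and a minimum total of 15, quasi-likelihood test, Benjamini-Hochberg adjustment over 17093 genes), tested on simulated data. The standard error is the log2 fold change divided by the square root of F. Single values were compared by two-sided exact permutation tests on log2 CPM with a prior count of 2. DESeq2, the tool of the authors, was an alternative (version 1.42.0 here), as were other normalizations, filters, covariates, a replicate block and each mouse left out. The planned comparison with the mean of 4 proliferation genes is given without a p, and the 8 pairs and the DESeq2 fits with fewer mice or genes were added after seeing the data. Named were the 9 genes, the list genes with an unadjusted p under 0.05, the 2 of highest level per kilobase in each list, the 3 tested genes most correlated with Brca1 and with Cdk2, and Crhr1, Slc17a7 and Gad2. For Gins2, Col1a1 and Ogn the choice was made on their values. The 9 genes and all lists were chosen with earlier results of these data known. Of 250 list symbols, 249 matched. No source says whether mice were handled in batches. No pair of libraries was alike within sampling noise (chi-square per degree of freedom at least 29.3).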

Additional observations from a re-analysis of the deposited data

Results flagged for a closer look

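Of 40 sets of values examined, 2 held a mouse far from the others by Dixon's test, and chance gives about 2. Withdrawn replicate 2 had a summed level of microglial markers of 12.4 CPM, below the other withdrawn mice. Naïve replicate 5 had 0 CPM for the summed markers of oligodendrocyte precursors. None of the 9 genes held such a mouse in either group.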

How the results depend on the processing

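edgeR called 0 of the genes in each fit tried, but most of these fits held 6 to 8 of the 9 genes, and 3 where at least 10 counts were required in every mouse. Few genes of any kind were called in these fits. The numbers were 1 of 17093 in the main fit and 0 of 21298 without the 3 mice of conflicting label. With no low-count filter they were 137 of 41907, and the most was 193 of 18170, without withdrawn replicate 2. All 9 were in the edgeR fits with no low-count filter and without the 3 mice of conflicting label, and Brca1 was otherwise fitted by edgeR only without withdrawn replicate 3 (highest adjusted p of the 3 fits, 0.647). DESeq2 called 2 of the 9 (Brca1 and Cdk2), also 2 without its Cook distance cutoff, 1 (Brca1) without the 3 mice of conflicting label, and from 1 to 3 with each mouse left out in turn, Brca1 in 11 of 11 of these fits and Cdk2 in 6 of 11. Of all genes with a p-value, DESeq2 called 362 of 40831 with all mice and 168 of 39575 without the 3 mice of conflicting label. With a mouse left out it called from 150 to 540 genes. Cdk2 lost DESeq2's call without naïve replicate 1 or 4 or withdrawn replicate 1, 3 or 4 (highest adjusted p = 0.178), and Ccne1 gained it without naïve replicate 2. On the genes past the edgeR filter DESeq2 gave Cdk2 an adjusted p of 0.0588, so the call also rests on the genes tested. With a prior count of 0.5 the log2 CPM difference was 4.64 for Brca1 and 3.15 for Cdk2 (exact permutation p = 0.00649 and 0.0130). The differences with a prior count of 2 stayed between 3.10 and 4.06 for Brca1 and 2.24 and 3.22 for Cdk2 with a mouse left out. Their exact permutation p was at most 0.0159 and 0.0238, and from 5 to 7 of the 8 pairs had p of at most 0.05 in that test. Genes and pairs were set with earlier results of these data known, so these p-values and counts are not independent evidence. The median of each list kept its sign with DESeq2 size factors. DESeq2 called Chek2 in 9 and Ccng1 in 2 of its 11 fits with a mouse left out.

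Naïve and withdrawn mice with the same number are different animals, and the numbers do not pair them (correlations of same-numbered deviations from -0.20 to 0.18). With a replicate block 0 of all 17093 genes were called, and so 0 of the 7 genes in that fit, which left out Brca1 and Cdk1. The log2 fold change of Cdk2 in it was 3.45 (edgeR adjusted p = 0.729).

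Depth limits Brca1 and Cdk1 most, with 8 naïve reads for Brca1 and 26 naïve and 8 withdrawn reads for Cdk1.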
